A study of Mus musculus with 10 samples.

Results

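The cells described here are mesenchymal cells of the E16.5 mouse lower incisor that carried RNA of genes known from bone-forming cells and from the dental follicle, the connective tissue that surrounds the tooth germ. They were chosen by their own counts. A cell counted as a member when at least 2 of *Ibsp*, *Sfrp4*, *Alpl*, *Matn4*, *Stmn2* and *Runx2* had a UMI (1 counted RNA molecule), at most 1 of the dental papilla genes *Crym*, *Tril*, *Egr3*, *Fgf3* and *Vegfd* did, and at most 2 of the epithelial genes *Epcam*, *Krt5*, *Krt14*, *Krt17*, *Dsp* and *Dsc3* did. The rule selected 1285 of the 4511 E16.5 cells that passed quality limits (28.5%), out of 17175 passing cells over E11.5, E14.5 and E16.5. The main comparison group, called other mesenchyme, held the 1061 other passing cells with at least 2 of *Prrx1*, *Twist1*, *Pdgfra* and *Col3a1* and the same epithelial limit. A smaller group of 149 cells with at least 2 of the 5 papilla genes is called papilla-like and lies within it.

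The cells came from wild type NMRI mouse embryos. Whole mandibles were dissociated at E11.5, and the buds of the lower incisors at the later stages. RNA was read with 10x Chromium 3′ chemistry. The labels list 2 samples at E16.5 and 4 at each of E14.5 and E11.5, but the barcodes of a stage were deposited in 1 table with no map to samples, so each stage is 1 sample here. No test between conditions could therefore be made, all values are descriptions of these tables, and the 95% intervals given cover counting error only.

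Bone forms when mesenchymal cells switch on *Runx2*, then *Sp7*, and lay down a collagen matrix that alkaline phosphatase (*Alpl*) and bone sialoprotein (*Ibsp*) help to mineralize. Late products of the same lineage are osteocalcin (*Bglap*) and, in osteocytes, *Dmp1* and *Mepe*. The dental follicle gives rise to the periodontal ligament, the cementum and the alveolar bone of the tooth socket, and it sends and receives PTHrP, BMP and Wnt signals that guide bone around the growing tooth. The dental papilla, by contrast, becomes the dentin-forming odontoblasts and the pulp.

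The members held 9324015 UMIs with a median of 6098 UMIs and 2195 genes per cell, and other mesenchyme held 8127065 UMIs with a median of 5953 UMIs. The papilla-like cells were deeper, with a median of 12433 UMIs. Among the members, 4 carried a barcode that was also found among passing E14.5 cells and 2 carried one found among passing E11.5 cells. Levels are given as CPM: the UMIs of a gene were added up over all cells of a group and scaled to the same library total in every group. Ratios are log2 ratios of CPM after 10 CPM were added to both, which understates the change of low genes. A gene was ranked when at least 10% of the cells of either group had a UMI and the groups together had at least 50 counts, and it is called higher or lower from a 2 fold ratio upward.

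*Ibsp*, *Alpl* and *Col1a2* of the bone matrix list passed the 2 fold limit upward against other mesenchyme. The 250 bases before their starts are shown, from RefSeq on GRCm38.p6, because these are the bone matrix genes past the limit, of which *Ibsp* and *Alpl* are genes of the rule. Capitals mark TGCTGA, the left part of the Maf recognition element, read on either strand, since *Maf* was among the 10 genes with the largest ratios. The *Ibsp* window lies at chr5:104299037-104299286 on the plus strand. The 2 *Alpl* windows lie at chr4:137796385-137796634 and chr4:137766476-137766725 on the minus strand. The *Col1a2* window lies at chr6:4505368-4505617 on the plus strand. GENCODE starts *Ibsp* at position 104299171, inside the *Ibsp* window, and *Col1a2* at 4504814, before the *Col1a2* window, so these windows lie partly or wholly inside the gene by that annotation.
Ibsp: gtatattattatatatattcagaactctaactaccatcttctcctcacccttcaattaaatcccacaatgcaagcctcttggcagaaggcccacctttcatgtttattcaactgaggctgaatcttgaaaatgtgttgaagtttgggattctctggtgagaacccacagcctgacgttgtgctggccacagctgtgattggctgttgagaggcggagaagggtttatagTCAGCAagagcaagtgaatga
Alpl, first start: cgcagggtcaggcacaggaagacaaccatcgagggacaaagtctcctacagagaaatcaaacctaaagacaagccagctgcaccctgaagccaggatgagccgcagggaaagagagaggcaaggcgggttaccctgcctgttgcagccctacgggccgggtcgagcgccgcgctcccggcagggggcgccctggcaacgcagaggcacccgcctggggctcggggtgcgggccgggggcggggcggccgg
Alpl, second start: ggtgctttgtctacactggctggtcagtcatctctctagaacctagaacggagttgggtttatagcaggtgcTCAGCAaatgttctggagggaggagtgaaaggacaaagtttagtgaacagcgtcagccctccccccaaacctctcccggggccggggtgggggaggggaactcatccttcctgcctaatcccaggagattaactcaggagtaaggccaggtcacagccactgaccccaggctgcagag
Col1a2: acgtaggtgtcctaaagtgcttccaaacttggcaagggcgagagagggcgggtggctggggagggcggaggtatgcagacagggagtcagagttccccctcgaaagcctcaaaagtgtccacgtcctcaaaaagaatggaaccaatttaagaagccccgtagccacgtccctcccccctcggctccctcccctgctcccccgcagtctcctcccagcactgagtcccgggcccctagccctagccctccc
The Maf letters begin 21 bases before the *Ibsp* start and 178 bases before the second *Alpl* start, both read on the other strand. Neither the Runx letters TGTGGT nor the homeodomain letters TAATTA occur on either strand in these 4 windows. Over all 32851 windows of the table, 14.05% held TGTGGT, 16.1% held TGCTGA and 4.84% held TAATTA. Of the 52 genes at least 2 fold higher in the members, 38 had a window, and the first window listed held TGTGGT for 4, TGCTGA for 5 and TAATTA for 1, which are shares of 10.5%, 13.2% and 2.63%. These letter matches are a description of the windows.

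The genes of the rule describe how the members were made up. *Runx2*, the transcription factor that starts the osteoblast program, had a UMI in 1135 of the 1285 members. *Sfrp4*, a secreted Wnt antagonist of the dental follicle, had one in 631 members, and *Matn4*, a matrix adaptor protein, in 576. *Alpl* had a UMI in 554 members, *Stmn2*, a microtubule regulator better known from neurons, in 320, and *Ibsp* in 193. Exactly 2 of the 6 genes were seen in 664 members, 3 in 427, 4 in 171, 5 in 22 and all 6 in 1. The most frequent pair among the cells with exactly 2 was *Matn4* with *Runx2*, in 173 cells, followed by *Sfrp4* with *Runx2* in 132. At least 2 of the 4 mesenchymal genes were seen in 1211 members (94.2%). The papilla limit left out 73 cells with 2 or more of the 6 genes, and the epithelial limit left out 328.

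*Sfrp4* had 324 CPM (313 to 336) in the members, 26.9 in other mesenchyme and 20.3 in papilla-like cells. *Runx2* had 368 CPM, 143 CPM and 129 CPM in the same order, so the other mesenchyme was not without it. *Ibsp* had 151 CPM in the members, 35.7 in other mesenchyme and 111 in the papilla-like cells, of which 6.71% had an *Ibsp* UMI against 15.0% of the members. *Alpl* had 115 CPM against 18.1 CPM in other mesenchyme, and *Stmn2* had 81.5 CPM against 11.6 CPM. Both were also found in the 1487 epithelial cells of the stage, at 71.1 and 76.1 CPM, and *Matn4* had 52.8 CPM there against 106 CPM in the members. These gaps follow from the rule and support nothing by themselves.

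Later genes of the osteoblast program were either no higher in the members than in other mesenchyme or near 0. *Sp7* (osterix), which acts after *Runx2*, had 26.2 CPM (23.0 to 29.7) in the members and 26.3 CPM (22.9 to 30.1) in other mesenchyme. *Bglap* had 2.04 CPM against 2.58 CPM. *Spp1* (osteopontin) had 13 counts in the members and 0 counts in other mesenchyme. *Dmp1* and *Mepe* had 0 counts in the members, where a limit of 3 counts gives at most 0.322 CPM. *Phospho1*, which starts mineral deposition in matrix vesicles, had 0.107 CPM in the members. *Runx2*, *Alpl* and *Ibsp* cannot check the label osteogenic, since they chose the cells, and *Sp7*, *Bglap* and the osteocyte genes did not set the members apart. The cells are therefore called members below, after the rule alone.

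**Figure D1:**
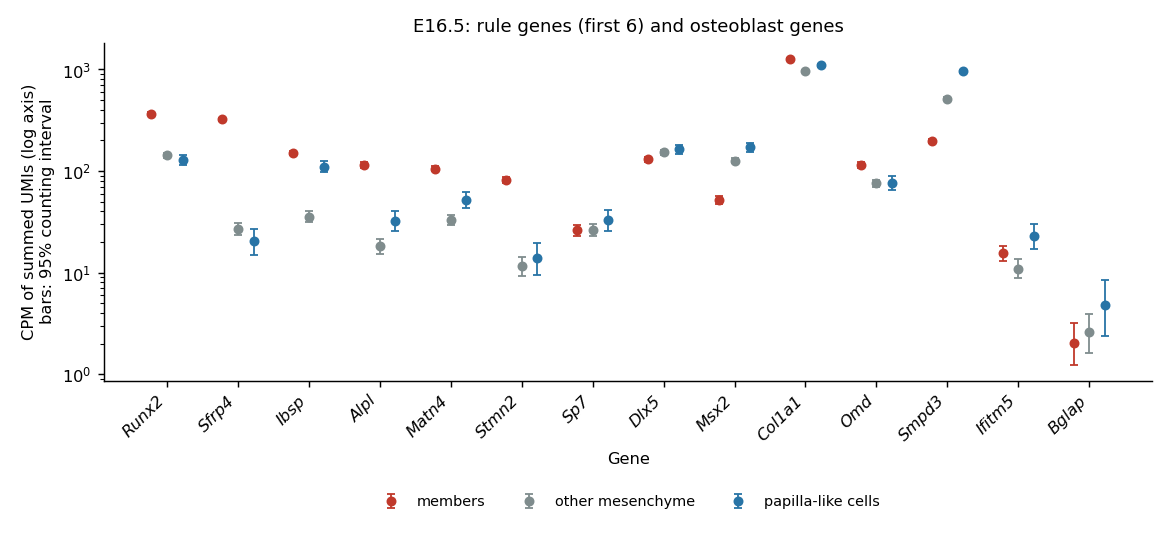
CPM of summed UMIs on a log axis for 14 genes in the members, other mesenchyme and papilla-like cells of E16.5, with bars for 95% counting intervals. The first 6 genes chose the members, *Sp7* lies at the same level in members and other mesenchyme (26.2 and 26.3 CPM), and *Smpd3* and *Msx2* lie lowest in the members.

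Against other mesenchyme, the members had at least 2 fold more RNA of *Igf1* and 3 IGF binding proteins, of the transcription factor *Maf* and of the cell cycle inhibitor *Cdkn1c*, and less of *Plac8*, *Car2*, *Smpd3* and *Msx2*. No ranked gene of the collagen, glycolysis and cell cycle lists was past 2 fold, and their median log2 ratios were 0.72, −0.29 and −0.28. The collagen list leaves out *Col1a1* and *Col1a2*, which are in the bone matrix list, and *Col1a2* was past 2 fold. Of 6955 ranked genes, 52 were at least 2 fold higher (0.748%) and 6 at least 2 fold lower (0.0863%), and 46 and 5 of these were not genes of the rule. After thinning to 2000 UMIs, where 2908 genes were ranked, 21 of the 52 and 0 of the 6 kept their call. With cells weighted equally 37 and 3 did. The median log2 ratio of all ranked genes was −0.02, and 90% of them lay between −0.32 and 0.39. Genes that accompany the 6 rule genes in the same cells are drawn in by the choice of members. These counts therefore describe the summed RNA of the chosen cells and not each member. *Maf* had a UMI in 35.6% of the members and *Igf1* in 39.6%.

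The 10 largest ratios included *Sfrp4*, *Alpl*, *Stmn2* and *Ibsp* from the rule. *Pdzrn4*, *Igfbp5*, *Cdkn1c*, *Maf* and *Slc1a3* were also among them. *Pdzrn4*, which encodes a ring finger protein with PDZ domains, had 110 CPM in the members and 9.97 CPM in other mesenchyme (log2 ratio 2.58, 2.40 to 2.76). *Igfbp5*, an IGF binding protein of the follicle list, had 593 CPM against 119 CPM (2.22, 2.13 to 2.32), and at 719 CPM it was no lower in the epithelial cells of the stage. *Cdkn1c*, which encodes the cyclin-dependent kinase inhibitor p57, had 646 CPM against 155 CPM (1.99). Within the stage *Cdkn1c* was not particular to the members. It had a UMI in 57.9% of members, 34.0% of other mesenchyme, 59.3% of endothelial cells and 53.3% of epithelial cells. After thinning these shares were 42.5%, 17.9%, 36.6% and 20.5% in the same order. *Maf*, a bZIP transcription factor, had 171 CPM against 37.7 CPM (1.93), with 258 CPM in epithelial cells. *Slc1a3*, a glutamate transporter, had 82.8 CPM against 17.3 CPM (1.76).

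The 10 smallest ratios were led by genes of the papilla-like cells. *Plac8* had 71.0 CPM in the members, 300.2 CPM in other mesenchyme and 626 CPM in papilla-like cells (log2 ratio to other mesenchyme −1.94, −2.05 to −1.83). *Car2*, a carbonic anhydrase, had 27.6 CPM against 104 CPM (−1.60). *Smpd3*, a neutral sphingomyelinase needed for bone and dentin mineralization, had 199 CPM against 515 CPM (−1.33). *Msx2*, a homeobox gene downstream of BMP, had 51.9 CPM against 126 CPM (−1.14). *Fgf3*, a papilla ligand and gene of the rule, had 5.36 CPM against 23.9 CPM. *Dcbld1* and *Asns* lay at the 2 fold limit, and *Myb*, *Fam107b* and *Ank3* had ratios of −0.98, −0.95 and −0.94. The papilla-like cells, where *Plac8* and *Smpd3* were highest, are part of the comparison group.

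**Figure D2:**
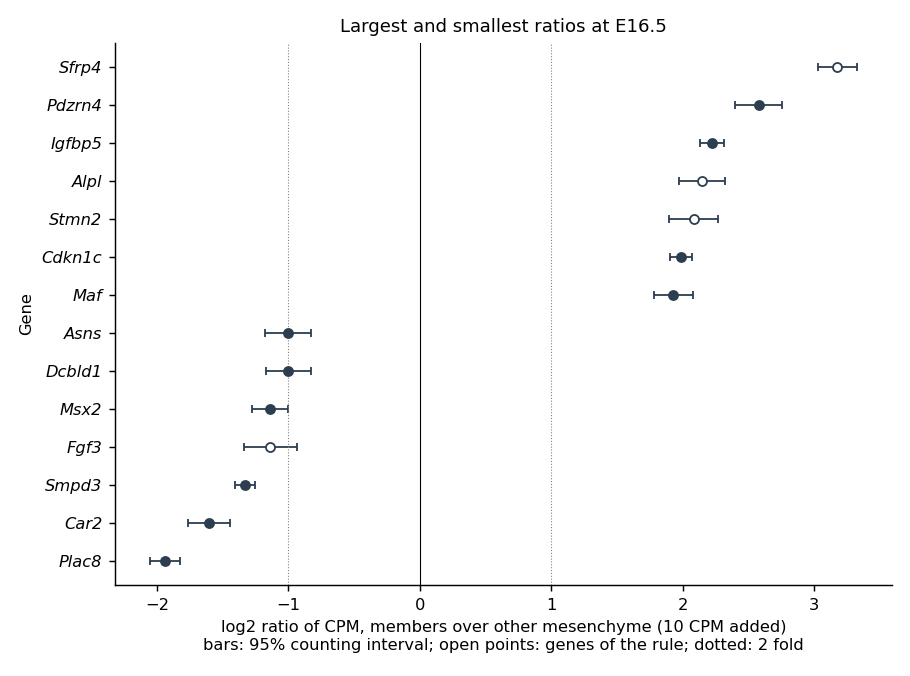
Log2 ratio of CPM, members over other mesenchyme at E16.5 with 10 CPM added, for the 7 largest and 7 smallest ratios among 6955 ranked genes, with bars for 95% counting intervals and open points for genes of the rule. *Sfrp4* lies at 3.18 and *Plac8* at −1.94, and the lower end reaches less far from 0 than the upper end.

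Among the 10 osteoblast transcription factors, all ranked, *Runx2* was higher and *Msx2* lower by 2 fold, and the median log2 ratio was 0.15 (0.02 without the rule gene). *Mef2c*, a MADS box transcription factor, had 137 CPM against 94.1 CPM. The homeobox genes *Dlx3* and *Dlx5*, both known regulators of osteoblasts, had lower values in the members, 46.7 against 74.9 CPM and 131 against 154 CPM. Neither passed the 2 fold limit.

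Of 21 bone matrix genes, 10 were ranked, and *Ibsp*, *Alpl* and *Col1a2* were higher and *Smpd3* lower. *Col1a2*, a chain of type I collagen, had 812 CPM against 392.4 CPM (1.03, 0.97 to 1.09), while its partner *Col1a1* had 1273 CPM against 973 CPM (0.39). *Sparc* (osteonectin), which binds collagen and mineral, had 656 CPM against 325 CPM, just under the limit. *Omd*, a keratan sulfate proteoglycan of bone, had 115 CPM against 75.7 CPM. In the list of fibrous and associated collagens none of 10 ranked genes reached 2 fold, but 9 had a ratio above 0 and the median was 0.72 against −0.02 for all ranked genes. *Col3a1*, which was used to define other mesenchyme, had 1892 CPM against 1009 CPM. *Col5a2* had 522 CPM against 290 CPM and *Col12a1* 145 CPM against 77.4 CPM. *Col11a1* had the only ratio below 0 among them, at 277 against 297 CPM. Genes that fold and crosslink collagen differed little, with a median of 0.19 over 15 ranked genes and none past 2 fold.

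The follicle and ligament list had 11 ranked genes, of which *Sfrp4*, *Matn4*, *Igfbp5*, *Postn* and *Bmp3* were higher and none was lower, and the median without rule genes was 0.51. *Postn* (periostin), a matrix protein of periosteum and periodontal ligament, had 299.7 CPM in the members, 123 CPM in other mesenchyme and 54.4 CPM in papilla-like cells. *Aspn*, a ligament proteoglycan that restrains mineral growth, had 42.3 CPM against 17.6 CPM, and *Spon1* had 79.0 CPM against 36.9 CPM. *Mkx*, a tendon and ligament transcription factor, had 55.7 CPM against 36.1 CPM. The tendon factor *Scx* was near 0 in both groups, at 1.07 and 0.738 CPM, and *Tnmd*, its target, had 13.3 CPM against 6.40 CPM. *Pthlh*, the ligand PTHrP, had 51.6 CPM against 45.6 CPM and its receptor *Pth1r* 28.2 CPM against 18.6 CPM, both under the limit. *Acta2*, smooth muscle actin, had 13.6 CPM against 62.9 CPM and was not ranked.

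In the IGF list 4 of 9 ranked genes were past the limit, with a median of 0.89 and all 9 ratios above 0. *Igf1*, the growth factor itself, had 281 CPM in the members, 76.2 CPM in other mesenchyme and 31.5 CPM in papilla-like cells (1.75). *Igfbp3* had 207 CPM against 67.7 CPM (1.48) and *Igfbp2* 55.7 CPM against 21.9 CPM (1.04). *Igf2* had 400.3 CPM against 211 CPM. The receptors *Igf1r* and *Igf2r* had 153 against 122 CPM and 59.5 against 51.3 CPM.

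Wnt antagonists lay on both sides. Besides *Sfrp4*, *Sfrp2* had 686 CPM against 335 CPM (1.01) and *Sfrp1* 71.1 CPM against 35.2 CPM (0.84). The antagonist *Dkk2* had 91.6 CPM against 60.9 CPM, whereas *Dkk1* had 18.4 CPM against 32.0 CPM and *Notum*, which inactivates Wnt proteins, had 12.3 CPM against 28.7 CPM. The target genes *Axin2* and *Lef1* differed by less, 29.2 against 35.2 CPM and 174 against 167 CPM. Over 17 ranked Wnt genes the median was 0.00, with 2 past the limit.

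In the BMP list, 1 of 15 ranked genes was past the limit. This was *Bmp3*, an antagonist of osteogenic BMPs, at 50.8 CPM against 19.4 CPM (1.05). The ligands *Bmp4* and *Bmp2* had lower values, 79.8 against 115 CPM and 64.2 against 89.8 CPM, and so had the pseudoreceptor *Bambi*, at 181 against 321 CPM (−0.79). The target *Id1* had 250 CPM against 348 CPM. In the hedgehog list, *Hhip*, the decoy receptor, had 64.9 CPM against 16.7 CPM (1.49), while *Ptch1* and *Gli1* differed little, 558 against 475 CPM and 45.9 against 41.2 CPM. Of the FGF ligands, *Fgf10* had 30.1 CPM against 54.1 CPM, and the receptor *Fgfr2* had 41.1 CPM against 18.9 CPM (0.82). *Tgfb3* had 25.1 CPM against 12.4 CPM (0.65).

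Of 7 ranked matrix proteases 1 was at least 2 fold higher (median 0.46), and of 7 ranked adhesion genes 2 were (median 0.09), with none lower in either list. The aggrecanase *Adamts5* had 45.7 CPM against 10.3 CPM (1.45). *Ncam1* had 496 CPM against 183 CPM (1.39) and the integrin chain *Itgb5* 54.4 CPM against 20.4 CPM (1.08). *Mmp13* (collagenase 3) had 28.1 CPM against 1.72 CPM and *Mmp9* (gelatinase B), which the osteoclast list holds, 28.4 CPM against 6.28 CPM (1.24). *Mmp13* was not ranked, since 7.55% of the members and 0.848% of other mesenchyme had a UMI. *Tnfsf11* (RANKL), the osteoclast-inducing ligand, had 11.4 CPM against 1.97 CPM and was not ranked either. Its decoy receptor *Tnfrsf11b* (osteoprotegerin) had 0.536 CPM against 0.615 CPM. Among jaw transcription factors, *Foxp1* had 73.9 CPM against 26.8 CPM (1.19) and *Foxf2* 26.0 CPM against 11.9 CPM (0.71), while *Hand2*, which marks the distal jaw, was level at 309 and 310.4 CPM.

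All 10 cell cycle genes were ranked and all 10 had ratios below 0, from *Pclaf* at −0.51 to *Cenpf* at −0.09, with a median of −0.28 and none past 2 fold. *Top2a* had 465 CPM against 562 CPM. Of 12 ranked glycolytic genes, 10 had ratios below 0 with a median of −0.29, led by *Ldha*, which makes lactate, at 289 against 444 CPM. Immediate early genes, which also respond to tissue dissociation, had a median of 0.51 over 7 ranked genes, with *Fos* at 631 against 441 CPM. Whether dissociation had a part in it was not tested. Genes of the secretory pathway differed little, with a median of 0.03 over 11.

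Markers of other cell types moved with the comparison in part. Erythroid markers, mostly globins, summed to 9440 CPM in the members and 7145 CPM in other mesenchyme, with *Hbb-bs* the most abundant and none of the 7 genes at 0. Glial markers summed to 48.7 CPM against 12.4 CPM, nearly all of it *S100b* at 40.4 against 7.26 CPM, while *Sox10* had 0.107 CPM and *Foxd3* 0. Immune markers summed to 12.9 CPM against 0.984 CPM over 7 genes, with *Tyrobp* the most abundant at 7.19 CPM. Osteoclast markers summed to 91.4 CPM against 42.6 CPM over 8 genes, led by *Ctsk* at 48.9 CPM, with *Mmp9* the 1 of 2 ranked genes past 2 fold and *Calcr* and *Ocstamp* at 0. Chondrocyte markers summed to 156 CPM against 194 CPM over 16 genes, led by *Sox9*, with *Matn1*, *Col10a1* and *Ihh* at 0 and *Col2a1* at 0.858 CPM. Endothelial markers summed to 5.68 CPM against 17.8 CPM over 6 genes. Neuronal markers, a list that does not hold *Stmn2*, summed to 23.5 CPM against 44.8 CPM over 6 genes, nearly all *Tubb3*. Muscle markers summed to 0.751 CPM over 7 genes. Pericyte and smooth muscle markers summed to 83.4 CPM against 155 CPM over 6 genes, with *Rgs5* at 14.48 against 87.7 CPM, so the comparison group held pericyte RNA. Epithelial genes outside the rule summed to 105 CPM against 67.6 CPM over 8, led by *Krt8* at 40.4 against 29.2 CPM. Without the cells in which over 1% of UMIs were globin, 52 of the 52 higher and 5 of the 6 lower genes kept their call, and without reference cells that had 2 or more pericyte genes 50 and 6 did. When every cell was thinned to 2000 UMIs and the members were chosen again, only 21 of the 52 higher and 0 of the 6 lower genes kept their call, and with cells weighted equally 37 and 3 did. The part of the other cell types' RNA in these ratios was not tested.

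Shares of cells were also compared after every cell was thinned to 2000 UMIs, which left out 17 members and 18 cells of other mesenchyme. *Igf1*, *Maf* and *Ogn* kept the order of their levels. *Igf1* had a UMI in 39.6% of members (36.9 to 42.3, exact binomial) and 16.8% of other mesenchyme, and after thinning in 27.2% and 10.3%. Of endothelial cells 22.03% had one and of epithelial cells 4.24%, after thinning 8.04% and 1.25%. *Maf* had one in 35.6% and 14.1%, after thinning in 20.9% and 6.71%, and epithelial cells had it as often as the members, in 39.7%, after thinning in 21.3%. *Ogn* (osteoglycin) had one in 29.6% and 11.9%, against 1.88% of epithelial cells at a median of 8375 UMIs, and after thinning in 16.48% and 7.77%, against 0.624%. *Col8a1* did not, with 696 against 669 CPM but a UMI in 50.04% and 52.2% of the cells, after thinning in 38.8% and 42.8%, and no order is read for it. *Smoc2* had 307 against 272 CPM and a UMI in 47.9% and 43.6%, after thinning in 32.6% and 33.7%, and no order is read for it either. *Sfrp2*, past 2 fold by level, differed less by share, with a UMI in 56.6% and 52.2%, after thinning in 39.9% and 34.8%. *Sp7* had a UMI in 15.3% of both groups, against 3.39% of 118 endothelial cells (median 5909.5 UMIs) and 4.64% of epithelial cells. After thinning these shares were 4.57% of members, 4.03% of other mesenchyme and 0.554% of epithelial cells. Of 112 thinned endothelial cells 0 had a *Sp7* UMI, with an exact binomial upper limit of 3.24%. *Runx2* had a UMI in 3.39% of endothelial cells, which are not known for it, and in 15.5% of epithelial cells. Among the epithelial cells, those of the enamel organ can express it. A single *Runx2* UMI in a cell was therefore not read as expression by itself. The rule did count it toward membership, and 1135 of the 1285 members had a *Runx2* UMI.

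The values just inside and just outside the limit of 2 rule genes formed a gradient. Its steps count the genes that chose the cells, and the papilla limit kept papilla-like cells out of the members. The gradient is therefore a description and supports nothing by itself. In members with 2, 3 and 4 or more rule genes, *Sfrp4* had 151, 362 and 678 CPM, whereas *Ibsp* had 182, 138 and 96.9 CPM. Cells of other mesenchyme with 1 rule gene numbered 690, and members with exactly 2 numbered 664. *Igfbp5* had 88.8 CPM in the 301 cells of other mesenchyme with 0 rule genes, 128 CPM with 1, 397 CPM in members with 2, 612 CPM with 3 and 1037 CPM in the 194 members with 4 or more. *Cdkn1c* went from 139 CPM over 160 CPM, 308 CPM and 739 CPM to 1303 CPM in the same order. *Pdzrn4* went from 4.04 CPM to 303 CPM and *Maf* from 20.7 CPM to 361 CPM. Each of these 4 genes was higher at every step. *Plac8* went the other way, from 382 CPM with 0 rule genes to 21.5 CPM with 4 or more, *Msx2* from 144 CPM to 18.7 CPM and *Smpd3* from 544 CPM to 72.5 CPM. *Sp7* stayed between 21.2 and 30.6 CPM at all 5 steps. The median depth moved with the steps, at 5676, 5777, 5729.5, 6412 and 6973 UMIs, and its part in the gradient was not tested.

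**Figure D3:**
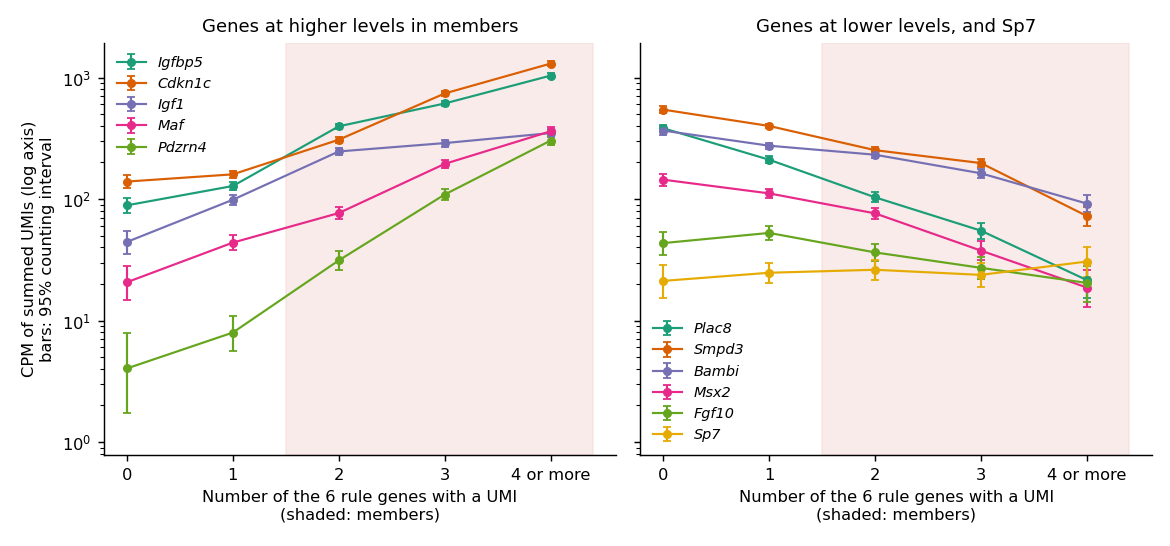
CPM on a log axis against the number of the 6 rule genes with a UMI in a cell at E16.5, with members shaded and bars for 95% counting intervals. *Igfbp5*, *Cdkn1c*, *Maf* and *Pdzrn4* lie higher at each step, *Plac8*, *Smpd3*, *Msx2* and *Bambi* lie lower at each step, and *Sp7* stays between 21.2 and 30.6 CPM.

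Against the 149 papilla-like cells alone, IGF genes, fibrous collagens and *Ogn* had higher values in the members, and the sphingomyelinase gene *Smpd3* had a lower one. Of 8816 ranked genes, 143 were at least 2 fold higher in the members (1.62%) and 63 lower (0.715%), and the median log2 ratio was −0.05. After thinning to 2000 UMIs, with only 2 papilla-like cells left, 96 of the 143 and 9 of the 63 kept their call. The papilla genes of the rule fix part of the lower end, which held *Plac8*, *Car2*, *Vegfd*, *Smpd3* and *Fgf3*. *Smpd3* had 957 CPM in the papilla-like cells (log2 ratio −2.21) and *Vegfd*, a lymphatic growth factor of the rule, 56.1 CPM against 2.36 CPM in the members. The upper end held *Sfrp4*, *Igf1*, *Ogn*, *Igfbp5* and *Pappa2*. *Ogn*, a small proteoglycan of periosteum and ligament, had 149.8 CPM in the members and 13.0 CPM in the papilla-like cells (2.80). *Pappa2*, a protease that cleaves IGF binding proteins, had 79.3 CPM against 6.04 CPM (2.48). Thus *Igf1*, the binding protein *Igfbp5* and the protease that cuts it all lay at this end, and 6 of 9 ranked IGF genes were past 2 fold.

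Of 10 ranked fibrous and associated collagens, 6 were at least 2 fold higher in the members than in papilla-like cells, among them *Col3a1* at 1892 against 642 CPM and *Col6a2* at 169 against 52.2 CPM. *Col1a1* differed little, at 1273 against 1102 CPM. Wnt antagonists again differed by member: *Sfrp2* had 686 CPM against 155 CPM and *Dkk2* 91.6 CPM against 16.8 CPM, whereas *Notum* had 12.3 CPM against 55.7 CPM and *Dkk1* 18.4 CPM against 55.7 CPM. All 10 cell cycle genes had ratios below 0 with a median of −0.77. The papilla-like cells were deeper, with a median of 12433 UMIs against 6098. Markers of other cell types moved with the comparison too. Endothelial markers summed to 5.68 CPM in the members and 34.5 CPM in the papilla-like cells, led there by *Cdh5*, and neuronal markers to 23.5 CPM and 73.4 CPM, nearly all *Tubb3*. Glial markers had 48.7 CPM and 6.91 CPM, immune markers 12.9 CPM and 2.59 CPM, pericyte markers 83.4 CPM and 29.8 CPM, and erythroid markers 9440 CPM and 6427 CPM. Osteoclast markers had 91.4 CPM and 29.8 CPM and epithelial genes outside the rule 105 CPM and 37.1 CPM, each with 1 of 2 ranked genes past 2 fold. Of 7 ranked immediate early genes, 4 were at least 2 fold higher in the members (median 1.05). The part of depth and of these genes in the ratios was not tested.

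The members were not uniform. They fell by detection into 193 cells with an *Ibsp* UMI, 899 cells with *Sfrp4* or *Matn4* but no *Ibsp*, and 193 cells with neither, which met the rule through *Runx2*, *Alpl* and *Stmn2*. A single UMI could decide the group. Of the cells with *Ibsp*, 54 also had a *Sfrp4* UMI and 26 a *Matn4* UMI. The *Ibsp*+ cells had a median of 6867 UMIs and the *Sfrp4* or *Matn4*+ cells 5860. The *Ibsp*+ cells had more RNA of *Calca*, *Bmp3* and *Sparcl1*, and far less of *Sfrp2*, *Col8a1* and *Smoc2*. Of 7160 ranked genes, 36 were at least 2 fold higher in the *Ibsp*+ cells (0.503%) and 62 lower (0.866%). *Ibsp*, *Sfrp4* and *Matn4* made the groups, and their ratios carry no information.

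*Calca*, which encodes calcitonin and the peptide CGRP, had 102 CPM (86.6 to 119) in the *Ibsp*+ cells, 7.45 CPM in the *Sfrp4* or *Matn4*+ cells and 10.5 CPM in the rest. *Bmp3* had 143 CPM, 20.5 CPM and 91.2 CPM in the same order (log2 ratio of the first to the second 2.33). *Sparcl1*, a matrix protein related to osteonectin, had 57.8 CPM against 5.43 CPM, and *Moxd1* 51.9 CPM against 6.36 CPM. Of the bone matrix list, *Ibsp* and *Smpd3* were past 2 fold. *Smpd3* had 316 CPM in the *Ibsp*+ cells, 121 CPM in the *Sfrp4* or *Matn4*+ cells and 444 CPM in the rest, but few cells carried it, with a UMI in 11.4% (7.28 to 16.7), 9.01% (7.22 to 11.1) and 15.0%. *Ifitm5*, a membrane protein of mineralizing osteoblasts, had 42.2 CPM against 4.96 CPM and was not ranked. *Bglap* had 15 counts in the *Ibsp*+ cells, or 9.74 CPM, against 2 counts in the *Sfrp4* or *Matn4*+ cells, and *Sp7* had 40.3 CPM against 21.9 CPM (0.66). Most of the 19 *Bglap* counts of the members thus lay in the *Ibsp*+ cells, while *Sp7* had a UMI in 48 of them and in 117 of the *Sfrp4* or *Matn4*+ cells.

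Of 19 ranked Wnt genes, 3 were higher in the *Ibsp*+ cells and 2 lower, the latter *Sfrp4* and *Sfrp2*. *Dkk2* had 214 CPM in the *Ibsp*+ cells against 61.7 CPM (1.64), *Nkd1*, a feedback inhibitor, 63.0 CPM against 15.8 CPM and *Notum* 29.2 CPM against 5.89 CPM (1.30). *Axin2* had 44.8 CPM against 22.6 CPM (0.75). *Igf1* had 540.2 CPM against 232 CPM (1.19) and *Igfbp5* 1121 CPM against 542 CPM (1.03), while *Igfbp3* and *Igfbp2* had lower values, 104 against 265 CPM and 26.6 against 69.7 CPM. *Tnmd* (tenomodulin), a ligament and tendon gene, had 44.2 CPM against 5.89 CPM (1.77). All 10 cell cycle genes had ratios above 0 with a median of 0.75, none past 2 fold, and *Top2a* had 639 CPM against 407 CPM.

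The opposite end was led by secreted and matrix genes. *Sfrp2*, a Wnt antagonist, had 124 CPM (107 to 143) in the *Ibsp*+ cells, 897 CPM in the *Sfrp4* or *Matn4*+ cells and 316 CPM in the rest (−2.76). *Col8a1*, a short-chain collagen, had 132 CPM, 816 CPM and 765 CPM (−2.54). *Smoc2*, a matricellular calcium-binding protein, had 66.9 CPM, 368 CPM and 293 CPM (−2.30). *Slc1a3* had 18.8 CPM, 112 CPM and 13.5 CPM (−2.09). The homeobox genes *Dlx1* and *Dlx3* had 14.9 against 77.7 CPM and 18.8 against 52.0 CPM, and *Dlx5*, which acts on osteoblasts, had 66.2 against 145 CPM (−1.02). *Pax9* had 70.8 CPM against 173 CPM (−1.18) and *Cdh2* (N-cadherin) 59.1 CPM against 142 CPM (−1.14). Erythroid markers summed to 13902 CPM in the *Ibsp*+ cells against 8905 CPM, and immune markers to 35.1 CPM against 10.1 CPM, mostly *Tyrobp*. Osteoclast markers had 59.1 CPM against 109 CPM, led by *Ctsk*, and epithelial genes outside the rule 55.2 CPM against 125 CPM, with both ranked genes at least 2 fold lower. Without cells over 1% globin, 35 of 36 higher and 59 of 62 lower genes kept their call, but after thinning 15 and 36 did, and with at least 3 rule genes per member 15 and 39. The part of these markers in the other values was not tested.

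Within the 899 *Sfrp4* or *Matn4*+ cells, 349 had *Sfrp4* without *Matn4*, 322 had *Matn4* without *Sfrp4* and 228 had both. This split was made after the data had been seen. Of 7147 ranked genes, 172 were at least 2 fold higher in the *Sfrp4*+ cells (2.41%) and 127 lower (1.78%). After thinning to 2000 UMIs, 59 of the 172 higher and 21 of the 127 lower genes kept their call. *Pdzrn4* had 147 CPM in the *Sfrp4*+ cells and 2.36 CPM in the *Matn4*+ cells (3.67), *Maf* 312 CPM against 15.3 CPM (3.67), *Igfbp5* 839 CPM against 76.3 CPM and *Cdkn1c* 1131 CPM against 122 CPM. The transcription factor *Ebf1* had 238 CPM against 12.6 CPM (3.45), and *Mgp* (matrix Gla protein), which inhibits mineralization, had 157 CPM against 6.29 CPM (3.36). *Igf1* had 445 CPM against 38.5 CPM and *Postn* 505 CPM against 114 CPM. In all 8 of these genes the *Matn4*+ value lay below that of other mesenchyme.

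Of 10 ranked dental papilla genes, 4 were at least 2 fold lower in the *Sfrp4*+ than in the *Matn4*+ cells (median −0.60). *Smpd3* had 275 CPM in the *Matn4*+ cells against 5.50 CPM in the *Sfrp4*+ cells (−4.20), *Plac8* 125 CPM against 4.13 CPM (−3.25) and *Sgms2*, a sphingomyelin synthase, 75.1 CPM against 4.13 CPM (−2.59). *Rspo2*, a Wnt agonist, had 114 CPM against 8.72 CPM (−2.72). *Bmp4* had 144 CPM against 43.1 CPM and *Msx2* 107 CPM against 23.4 CPM. Of the 10 cell cycle genes, 8 were at least 2 fold lower in the *Sfrp4*+ cells. Of 10 ranked IGF genes, 6 were higher in the *Sfrp4*+ cells. The 2 groups differed in depth, with medians of 5362 and 6929 UMIs. In the *Sfrp4*+ cells glial markers summed to 103 CPM against 10.2 CPM, mostly *S100b* at 88.1 against 4.72 CPM, and pericyte markers to 147 CPM against 57.4 CPM. Osteoclast markers summed to 103 CPM against 49.9 CPM and epithelial genes outside the rule to 130 CPM against 81.8 CPM, whereas neuronal markers had 9.63 CPM against 31.9 CPM. All 7 ranked immediate early genes had ratios above 0 (median 0.66). Of 4 ranked chondrocyte genes, 1 was at least 2 fold higher and 2 lower in the *Sfrp4*+ cells (median −0.73). The part of these genes in the split was not tested.

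**Figure D4:**
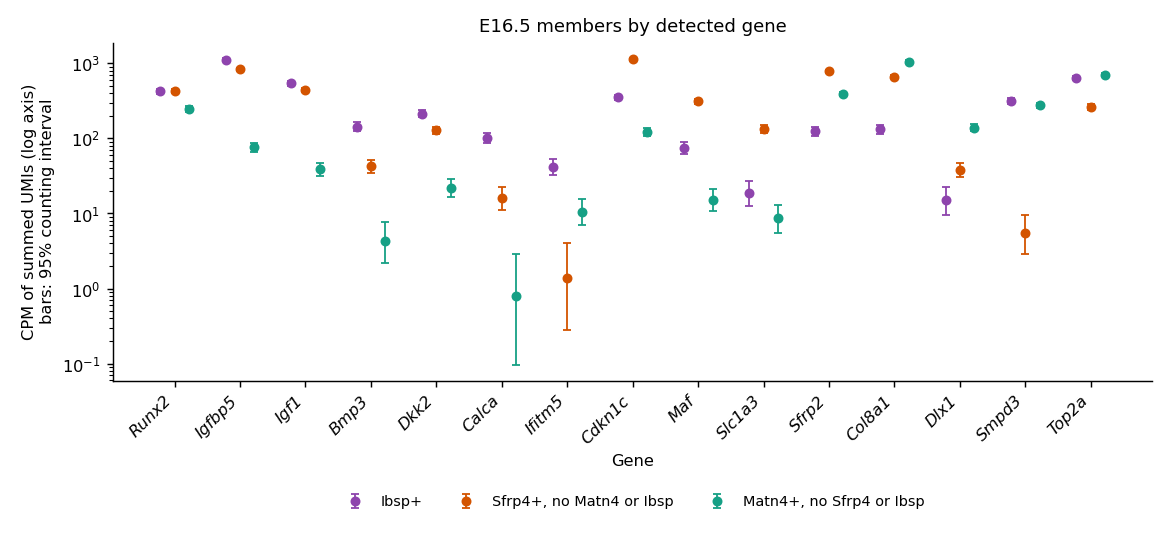
CPM on a log axis for 15 genes in 3 groups of E16.5 members: cells with *Ibsp*, cells with *Sfrp4* and neither *Matn4* nor *Ibsp*, and cells with *Matn4* and neither *Sfrp4* nor *Ibsp*, with bars for 95% counting intervals. *Igfbp5*, *Igf1*, *Bmp3* and *Dkk2* lie highest in the *Ibsp*+ and lowest in the *Matn4*+ cells (*Bmp3* at 143, 42.7 and 4.33 CPM), *Sfrp2* and *Col8a1* lie lowest in the *Ibsp*+ cells, and *Smpd3* and *Top2a* lie lowest in the *Sfrp4*+ cells.

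The same rule selected 1602 of 6091 passing cells at E14.5 (26.3%), against 28.5% at E16.5, at a median depth of 2981 UMIs and 6098 UMIs. With every cell thinned to 2000 UMIs these shares became 15.5% for the E16.5 table and 19.6% for the E14.5 table, in the opposite order, so no difference between the stages is read from them. Stage, embryo and sequencing cannot be told apart here, since each stage is 1 table. The E16.5 members had far more RNA of *Col8a1*, *Sfrp2*, *Smoc2*, *Dlx1* and *Id1* than the E14.5 cells. Of 6656 ranked genes, 115 were at least 2 fold higher at E16.5 (1.73%) and 28 lower (0.421%), and the median log2 ratio of all ranked genes was 0.09. After thinning to 2000 UMIs, 57 of the 115 higher and 12 of the 28 lower genes kept their call.

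*Col8a1* had 696 CPM at E16.5 and 19.2 CPM at E14.5 (log2 ratio 4.60, 4.41 to 4.78), *Sfrp2* 686 CPM and 34.4 CPM (3.97) and *Smoc2* 307 CPM and 18.1 CPM (3.50). The same 3 genes separated the *Sfrp4* or *Matn4*+ cells from the *Ibsp*+ cells within E16.5. In other mesenchyme they also had higher values at E16.5, with *Col8a1* at 669 against 32.9 CPM. *Lypd1*, which encodes a membrane-anchored protein, had 112 CPM and 0.905 CPM in the members. *Dlx1* had 69.0 CPM at E16.5 and 1.45 CPM at E14.5, *Dlx2* 57.5 CPM and 5.61 CPM, *Dlx3* 46.7 CPM and 4.89 CPM and *Dlx5* 131 CPM and 43.6 CPM. *Dlx6os1*, a noncoding RNA of the *Dlx5* and *Dlx6* locus that lies antisense to *Dlx6*, had 159 CPM and 11.6 CPM, and reads of overlapping genes there cannot always be told apart. *Msx2* had 51.9 CPM and 7.24 CPM.

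Of 15 ranked BMP genes, 5 were at least 2 fold higher at E16.5, namely *Bmp2*, *Id1*, *Id3*, *Smad7* and *Bambi*, and none was lower. *Id1*, a direct BMP target, had 250 CPM and 55.2 CPM, and *Bambi* 181 CPM and 36.2 CPM. Of 16 ranked Wnt genes, 4 were higher, and besides *Sfrp2* these were *Tcf7*, *Lef1* and *Wif1*. *Tcf7*, a nuclear partner of β-catenin, had 106 CPM and 16.48 CPM. *Omd* had 115 CPM and 14.1 CPM and *Smpd3* 199 CPM and 37.7 CPM, the 2 bone matrix genes past the limit. *Igfbp3* had 207 CPM and 33.3 CPM, and *Igf1* 281 CPM and 128 CPM. *Pthlh* had 51.6 CPM and 13.4 CPM.

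Genes with lower values at E16.5 included part of the rule. *Stmn2* had 81.5 CPM and 253 CPM (−1.52), the only rule gene past 2 fold, and *Ibsp* had 151 CPM and 274 CPM (−0.82). The rule chose the cells by these genes at both stages and at different depths, so no stage difference is read from them. *Postn* had 299.7 CPM and 619 CPM (−1.02), and *Pax3*, a neural crest transcription factor, 25.2 CPM and 109 CPM (−1.75). *Igf2bp1*, a fetal RNA binding protein, had 8.04 CPM and 43.8 CPM, and *Nnat* 9.76 CPM and 50.9 CPM. The lowest ratios were those of the embryonic globins *Hbb-y*, at 2.04 and 2160 CPM, and *Hba-x*, at 0.751 and 256 CPM, which are RNA of red cells and not of mesenchyme. *Xist*, which female cells transcribe from the inactive X chromosome, had 825 CPM and 1688 CPM, *Gm42418*, which overlaps ribosomal RNA, 879 CPM and 2134 CPM, and the mitochondrial *mt-Nd3* 819 CPM and 295 CPM. Endothelial markers summed to 5.68 CPM at E16.5 and 27.3 CPM at E14.5, led there by *Cdh5*, and immune markers to 12.9 CPM and 40.2 CPM, led by *Tyrobp*. Glial markers, mostly *S100b*, had 48.7 CPM and 18.8 CPM, neuronal markers 23.5 CPM and 7.61 CPM, pericyte markers 83.4 CPM and 31.7 CPM, and epithelial genes outside the rule 105 CPM and 49.1 CPM. All 7 ranked immediate early genes had ratios above 0 between the stages (median 0.67), with 1 at least 2 fold higher at E16.5. The part of embryo sex, library quality and these genes in the other ratios was not tested. *Sp7* had 26.2 CPM and 23.4 CPM, and *Bglap* 2.04 CPM and 0.181 CPM.

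**Figure D5:**
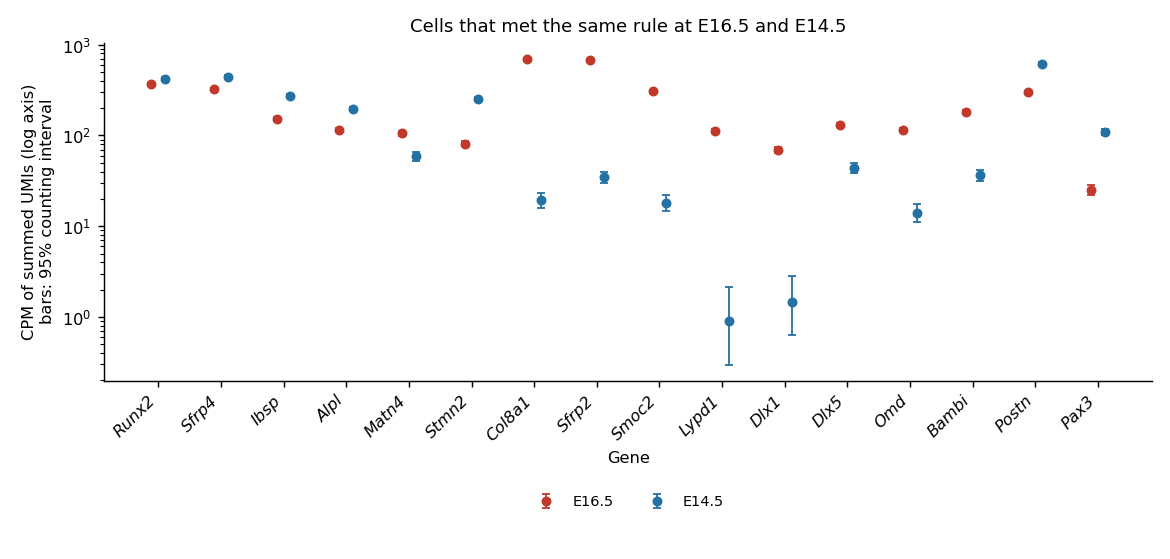
CPM on a log axis for 16 genes in the cells that met the same rule at E16.5 and at E14.5, with bars for 95% counting intervals. *Col8a1*, *Sfrp2*, *Smoc2*, *Lypd1*, *Dlx1*, *Omd* and *Bambi* lie higher at E16.5, and *Postn*, *Pax3* and the rule gene *Stmn2* lie higher at E14.5.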

How the data were processed

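Per the labels and the study's methods, the authors aligned 10x 3′ reads to mm10 with Cell Ranger 4.0.0 and deposited 1 table of raw UMI counts per stage over 32285 genes, before their filter on cells. Following the study's limits, a cell was kept from 700 detected genes upward if mitochondrial UMIs did not exceed 20%. The members and lists were chosen with earlier results of these data known. Counts were summed per group and given as CPM with exact Poisson intervals, shares with exact Clopper-Pearson intervals (95%), computed with scipy 1.17.1 and numpy 2.4.6 (python 3.11.15). With 1 table per stage no test was run. Named are the genes with the 10 largest and 10 smallest ratios in the main comparison, the 5 at each end in the others, and the genes of the rule and of the 37 lists, of whose 365 genes 364 were found. *Xist*, *Gm42418* and *mt-Nd3* were added after their values were seen. Some genes that the rule names are not reported here. Scrublet in scanpy 1.11.5 called 2 of 4511 E16.5 cells as doublets, too few to be used, so doublets were not removed. E16.5 passing cells held 1034 to 123785 UMIs. Ratios were checked on simulated counts. Alternatives are given in the closing section. RefSeq promoter windows count 250 bases before the start.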

Additional observations from a re-analysis of the deposited data

Results flagged for a closer look

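The E11.5 table was used in no comparison, since only 7 of its 6573 passing cells met the rule. These 7 cells had a median of 20445 UMIs, against 5664 for all passing E11.5 cells. *Alpl* and *Runx2* each had a UMI in 6 of them, *Matn4* and *Stmn2* in 1 each, and *Ibsp* and *Sfrp4* in none. Over all E11.5 barcodes *Sfrp4* had 1 UMI and *Ibsp* 0, while *Runx2* had 547.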

How the results depend on the processing

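No paired analysis was possible because the barcodes of a stage carry no sample, and for the same reason no sample could be left out. The members made up 28.5% of passing E16.5 cells, and 30.4% under limits of 1000 genes and 10% mitochondrial UMIs, 13.8% with at least 3 of the 6 genes, 25.8% without *Stmn2* in the rule, 26.8% when 2 mesenchymal genes were also required, 15.5% after thinning each cell to 2000 UMIs and 16.7% with no epithelial gene allowed. Counts of genes past 2 fold are given as higher and lower. With 1 CPM added in place of 10 they were 89 and 25 against other mesenchyme, 258 and 177 against papilla-like cells, 84 and 125 for *Ibsp*+ cells, 206 at E16.5 over E14.5 (higher), and 282 and 263 for *Sfrp4*+ over *Matn4*+ cells. After thinning they were 22 and 3, then 1539 and 818 with only 2 papilla-like cells left, then 121 lower for *Ibsp*+ cells, 76 and 16 between stages, and 81 and 39 for *Sfrp4*+ over *Matn4*+ cells. Against reference cells without any rule gene they were 92 and 25. The lower genes numbered 10 in the main comparison with 3 rule genes, with no epithelial gene and with no filter on genes, 121 against papilla-like cells with 3 rule genes and 104 with cells weighted equally. The higher genes of *Ibsp*+ cells numbered 55 with no epithelial gene. All other counts stayed within 1.5 times. Of the genes called above, thinning kept 21 of 52 and 0 of 6 against other mesenchyme, 96 of 143 and 9 of 63 against papilla-like cells, 57 of 115 and 12 of 28 between stages, 59 of 172 and 21 of 127 for *Sfrp4*+ over *Matn4*+ cells, and for *Ibsp*+ cells 15 of 36 and 36 of 62, as against 15 and 39 with 3 rule genes. Of 891 values of single named genes under these settings, 599 stayed within the counting interval of the main value, 292 moved beyond it and 0 changed sign. These values do not cover every listed gene under every setting, and a ratio far from 0 can hardly change sign. The pericyte, globin and *Sfrp4*+ over *Matn4*+ alternatives were added after the data were seen. A gene under 10 CPM in a group of 193 cells rests on few UMIs.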

Other observations

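Some genes that the rule did not use were often detected in the same members, and others less often. The genes of this split were chosen after their values had been seen. Among the 1268 members with at least 2000 UMIs, each thinned to that number, 506 had a *Sfrp2* UMI. *Col8a1* had a UMI in 64.6% of these cells and in 21.7% of the other 762, *Smoc2* in 55.7% and 17.3%, and *Dlx1* in 19.2% and 7.22%. *Bmp3* was detected less often in the cells with *Sfrp2*, in 1.98% of them and 12.3% of those without, and *Smpd3* likewise in 1.19% and 9.71%. Of the 104 members with a *Bmp3* UMI, 77.9% had *Igf1* and 44.2% *Dkk2*, against 22.7% and 10.4% of the other 1164. *Smpd3* was found in 1.92% (0.234 to 6.77) of the *Bmp3* cells and 6.70% (5.33 to 8.29) of the rest, which their counting intervals do not separate, and *Runx2* in 68.3% and 52.2%. *Bmp3* and *Smpd3* were thus each less frequent in the members with *Sfrp2*. With 1 sample, these shares describe the cells of 1 table.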
